A study of Mus musculus with 28 samples.

Results

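Bile acids that reach the small intestine are taken up by enterocytes, bound in the cytosol, passed out at the basolateral side and returned to the liver. The 7 genes described here encode that route and the nuclear receptor that senses it: Slc10a2 (the apical sodium-dependent bile acid transporter, ASBT), Fabp6 (the ileal cytosolic bile acid binding protein), Slc51a and Slc51b (the α and β subunits of the basolateral organic solute transporter), Nr1h4 (the farnesoid X receptor, FXR), Nr0b2 (SHP, an orphan nuclear receptor and repressor) and Fgf15 (the hormone that carries the intestinal bile acid signal to the liver). They were chosen by gene name for their place in this pathway, and all 7 were found, among 29413 genes in the table of the BMP experiment and 55416 in that of the TGFb experiment.

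As background, FXR is a ligand-activated transcription factor that binds DNA mainly as a heterodimer with a retinoid X receptor. In the ileum its known targets include Fabp6, Slc51a, Slc51b, Nr0b2 and Fgf15, and Fgf15 acts on the liver through Fgfr4 and its partner Klb to lower bile acid synthesis. Slc51a and Slc51b work only as a pair, and uptake through Slc10a2 is a function of the terminal ileum.

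The samples were organoids, epithelial cultures grown in Matrigel from intestinal crypts, all from wild-type C57BL/6 small intestine and kept in ENR medium. RNA was sequenced as bulk mRNA libraries after 24 h with a recombinant ligand at 500 ng/ml. The BMP experiment held 4 untreated control samples (replicates II, III, IV and VI), 4 given BMP2 (the same numbers), 3 given BMP3 (II, III and IV) and 3 each given BMP4, BMP5 or BMP7 (II, III and VI). The TGFb experiment held 3 untreated and 3 Tgfb-treated samples (I, II and III), and 2 mesenchymal samples of the series were not used here. The labels do not name the segment of small intestine that gave the organoids, add no bile acid to any group, and do not say whether replicates came from separate mice or cultures. The p-values therefore measure the spread among these samples only.

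Values of the BMP experiment are normalized counts, in which 1 read was worth 0.826 to 1.28, and each sample held 21358620 to 24784834 reads. Values of the TGFb experiment are TPM, which are scaled for transcript length and to an equal total in every sample, and whose depth is unknown. Enterocyte markers were present in every sample (the summed level of 9 genes was 74090 to 114420 normalized counts in the BMP controls). Several marker sums moved with the ligands. The enterocyte sum reached 192207 to 297001 with BMP2, and 421220 to 453000 under BMP4. The sum of 5 crypt stem and proliferation markers, 106638 to 134515 in controls, came down to 217 to 1058 (BMP2) and 4792 to 7405 (BMP4). The goblet sum (5 genes) was 19223 to 35474 in controls and 71949 to 125428 with BMP4, without overlap. By the limma test described below, Fcgbp, Clca1 and Tff3 rose there (log2 change 1.85, 3.05 and 0.81) and Muc2 and Spdef were not called. BMP2 samples lay below every control in the Paneth sum (4 genes, 21414 to 59890 against 67430 to 84450) and the hepatocyte sum (4 genes, 58.8 to 151 against 278 to 368). Within the hepatocyte sum Ttr and Cyp2e1 fell with BMP2 (log2 change -1.42 and -5.28) and Alb was not called (-0.07). BMP2 samples lay above every control in the tuft sum (4 genes, 466 to 575 against 249 to 294). So they did in the mesenchymal sum, which was low throughout (3 of 5 genes in the table, 33.3 to 47.7 against 0.826 to 20.4, with Col3a1 at 0 in all controls). Of 3 endothelial markers, Cdh5 and Kdr were at 0 in all controls, and the sum was 569 to 774 there, 832 to 1022 with BMP2 and 865 to 1031 with BMP4. BMP5 and BMP7 samples lay below every control in the crypt stem sum (33679 to 84414 and 30343 to 34689). Of its genes, only Smoc2 was called lower with BMP5 (log2 change -1.56). With BMP7 Lgr5, Olfm4 and Smoc2 were (-1.56, -2.20 and -2.59), and Ascl2 and Mki67 were called with neither ligand. Samples of both ligands lay above every control in the tuft sum (329 to 370 and 327 to 389). BMP7 samples were also lower than every control in the Paneth sum (49300 to 59520) and the hepatocyte sum (164 to 196). No tested gene of either sum was called alone with BMP7. In bulk samples, fewer cells of a type and less RNA per cell cannot be told apart, and the part of these shifts in the results below was not tested.

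Differences were tested with limma on log2(value + 1) over all genes at a mean of at least 10 normalized counts or 1 TPM, which 5 of the 7 genes reached in each experiment. Fabp6 and Nr0b2 did not, and their tests come from a fit of all genes without that filter. A gene is called changed at a Benjamini-Hochberg adjusted p under 0.05. Against its control, BMP2 changed 75.1% of all tested genes, BMP4 65.1%, BMP7 32.4%, BMP5 26.3%, BMP3 0% and Tgfb 56.7%, so a call is the common case with BMP2, BMP4 and Tgfb. The share of all genes whose groups do not overlap is given below for Tgfb only. With the BMP ligands, groups that do not overlap are therefore a description of the values and not a mark of these genes.

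With BMP4, both exporter subunits and FXR rose, by 5.48-fold (Slc51a), 9.89-fold (Slc51b) and 3.94-fold (Nr1h4). With BMP2 the same 3 genes fell, though Slc51b overlapped its controls. The uptake transporter Slc10a2 rose 2.94-fold with BMP2, while Fabp6 and Nr0b2 fell to 0 reads and to 2 reads over the 4 samples. Slc10a2 was also called higher with BMP4 (1.71-fold) and Fgf15 lower with BMP2. These calls and that of Slc51b with BMP2 were lost in some of the alternative fits. BMP5 and BMP7 gave smaller differences, mostly downward, and BMP3 changed none of the genes. In the TGFb experiment, Tgfb lowered the exporter subunits, FXR, Fabp6 and Nr0b2 and raised Fgf15.

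The windows of 250 bases before the transcription start are shown for the 3 genes that rose most with BMP4 and for Slc10a2. Slc10a2 was also called higher with BMP4 (log2 change 0.77, limma adjusted p = 0.0202), so its window is no contrast in that respect. They are RefSeq sequences of build GRCm38.p6 on the gene's own strand, whereas the deposited values were made on GRCm39. RefSeq windows matched 6 of the 7 genes. Capitals mark the hexamers AGGTCA and GGGTCA, the core letters that nuclear receptors bind, on either strand.
Slc51a: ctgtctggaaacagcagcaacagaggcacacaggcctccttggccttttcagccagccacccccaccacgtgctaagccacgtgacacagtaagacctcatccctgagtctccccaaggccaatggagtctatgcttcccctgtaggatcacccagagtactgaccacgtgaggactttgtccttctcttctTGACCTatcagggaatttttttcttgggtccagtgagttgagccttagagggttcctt
Slc51b: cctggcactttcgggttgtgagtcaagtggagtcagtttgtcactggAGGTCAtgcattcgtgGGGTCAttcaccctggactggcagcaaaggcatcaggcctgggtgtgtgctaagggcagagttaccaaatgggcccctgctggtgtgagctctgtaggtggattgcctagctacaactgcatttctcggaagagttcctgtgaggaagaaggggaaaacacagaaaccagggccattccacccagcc
Nr1h4: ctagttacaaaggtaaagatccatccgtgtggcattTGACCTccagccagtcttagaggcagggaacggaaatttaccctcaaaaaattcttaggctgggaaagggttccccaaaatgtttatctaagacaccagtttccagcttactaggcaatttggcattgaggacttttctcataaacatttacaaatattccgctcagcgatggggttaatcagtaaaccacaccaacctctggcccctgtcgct
Slc10a2: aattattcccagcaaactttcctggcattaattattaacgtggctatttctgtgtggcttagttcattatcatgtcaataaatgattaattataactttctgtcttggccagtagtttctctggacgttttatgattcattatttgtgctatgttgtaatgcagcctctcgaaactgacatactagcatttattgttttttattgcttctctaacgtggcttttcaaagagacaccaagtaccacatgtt
The Slc51b window, on the minus strand at chr9:65422774-65423023, held AGGTCA from -203 to -198 and GGGTCA from -187 to -182, counted from the start site. The Slc51a window, on the minus strand at chr16:32487880-32488129, held AGGTCA on the opposite strand from -58 to -53. That of Nr1h4, on the minus strand at chr10:89506659-89506908, held it on the opposite strand from -214 to -209, and the GATA letters AGATAA on the opposite strand from -131 to -126. The Slc10a2 window, on the minus strand at chr8:5105288-5105537, held neither hexamer. Among the windows not printed, that of Nr0b2 held GGGTCA from -143 to -138 and that of Fabp6 held none.

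Such hexamers are common: on either strand AGGTCA was in 14% and GGGTCA in 11.6% of 32851 RefSeq windows of the same length. AGATAA was in 9.99%. None of the 6 windows held the inverted repeat AGGTCANTGACCT (0.00609% of all windows), the extended form CAAGGTCA (1.33%), which contains AGGTCA, the SMAD palindrome GTCTAGAC (0.167%), the GC-rich SMAD letters GGCGCC (9.59%), the HNF4 letters CAAAGTCCA (0.384%) or the HNF1 letters GTTAATNATTAAC (0.00913%). Only exact letters were searched. The longest strings are so rare over all windows that their absence from 6 windows was nearly fixed in advance, and it says nothing of related forms. The Slc10a2 window, for one, holds attaattattaac, which differs from the HNF1 letters in its first letter only. These matches describe letters in a window and say nothing of binding.

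**Figure D1:**
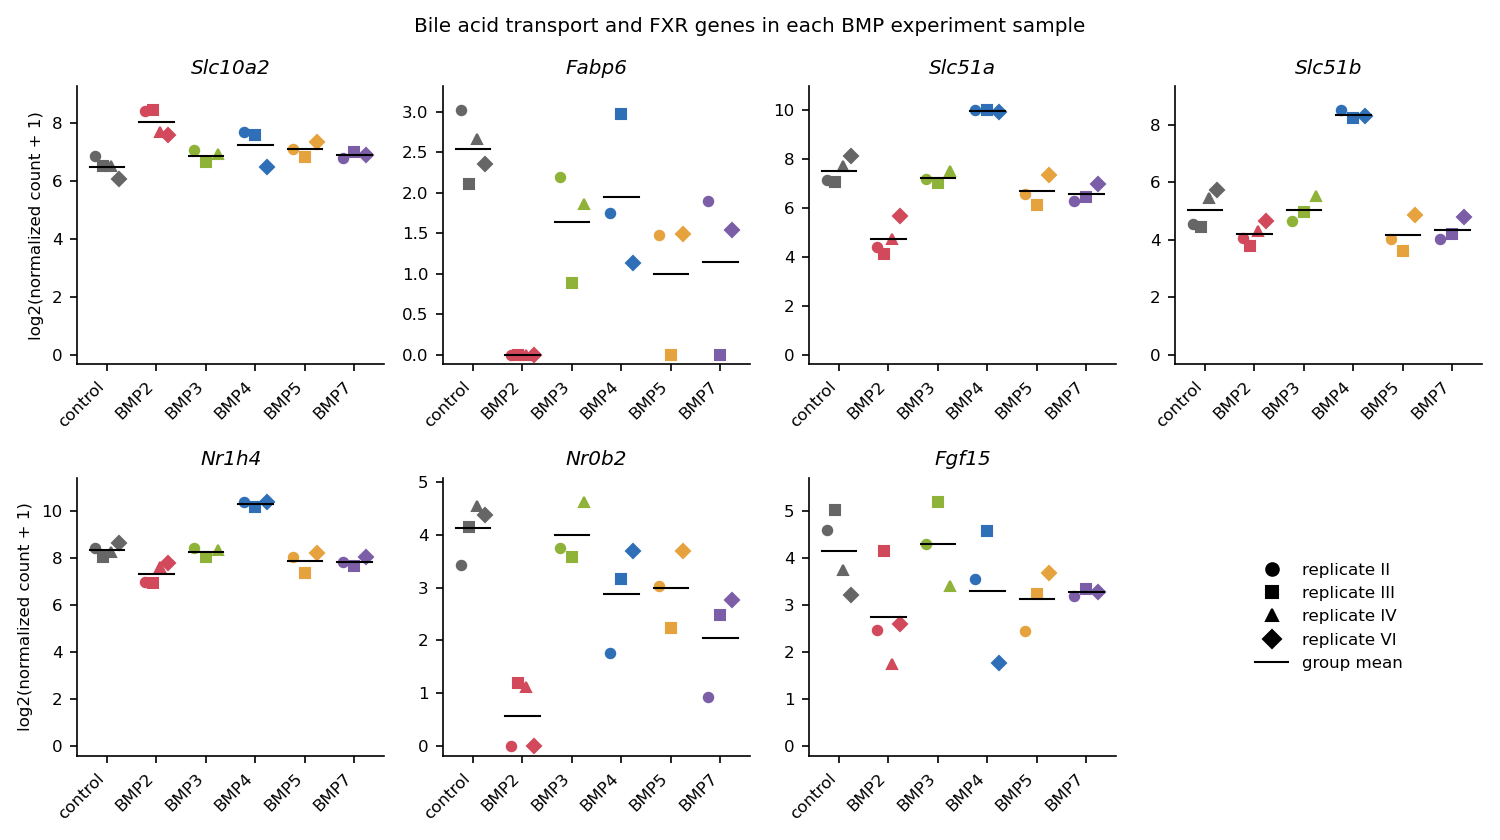
Level of each of the 7 genes in the 20 samples of the BMP experiment, as log2(normalized count + 1). Points are samples, their shape gives the replicate number and the line is the group mean; Slc51a, Slc51b and Nr1h4 are highest in the 3 BMP4 samples, and Fabp6 is at 0 in the 4 BMP2 samples.

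Slc10a2 (ENSMUSG00000023073), which imports bile acids together with sodium at the brush border, was lowest in controls and highest with BMP2. The normalized counts were 115, 89.6, 89.6 and 65.2 in control II, III, IV and VI. With BMP2 they were 338, 345, 207 and 191 in the same order. All 4 BMP2 samples were above all 4 controls, and replicates II and III stood above IV and VI. The mean rose from 89.9 ± 20.3 to 270 ± 82.6 normalized counts (SD, n = 4 each), a log2 change of 1.55 ± 0.26 (SE, limma adjusted p = 2.19e-05).

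With BMP4 the Slc10a2 values were 206, 192 and 87.4 in II, III and VI. Replicates II and III lay above every control and VI lay among them, so the groups overlapped. The log2 change was 0.77 ± 0.28 (SE, limma adjusted p = 0.0202). The call was lost when every sample was set to the same total, at 0.38 on the log2 scale (adjusted p = 0.257). It was also lost when only these groups were fitted (0.0549) and without BMP4 replicate II (0.126), BMP4 replicate III (0.105) or control replicate VI (0.0665). BMP3 (133, 98.8 and 120), BMP5 (137, 112 and 161) and BMP7 (110, 127 and 119) gave log2 differences of 0.40, 0.61 and 0.42 from the control, with 95% intervals of -0.18 to 0.98, 0.03 to 1.19 and -0.16 to 1.00, and none passed the adjusted threshold.

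In the order of group means Slc10a2 ran from BMP2 through BMP4, BMP5, BMP7 and BMP3 to the control. Of these neighbours, only BMP2 and BMP4 differed in the test (log2 difference 0.78, 95% interval 0.20 to 1.36, limma adjusted p = 0.0186), and their ranges touched because BMP2 replicates IV and VI (207 and 191) were level with BMP4 replicates II and III. That difference fell to 0.39 without BMP4 replicate VI (adjusted p = 0.187), and also missed the threshold without BMP2 replicate II (0.0576) or III (0.0619) or with only these groups fitted (0.0692). The genes whose log2 level was most like that of Slc10a2 over the 20 samples were Chga (Pearson r = 0.922), Ptprn (0.921) and H2-Q4 (0.912). With every sample set to the same total, 2 of these 3 remained and Klf2 came first (0.885). Over the 6 TGFb samples the same correlations were 0.63, 0.23 and 0.95. Chga encodes chromogranin A, a marker of enteroendocrine cells. The sum of 6 enteroendocrine markers lay between 6675 and 9569 normalized counts in controls, between 7567 and 17851 with BMP2, and between 4858 and 10885 with BMP4. Its genes did not move as a set. With BMP2 Chga, Neurod1 and Sct rose (log2 change 1.31, 1.60 and 4.48), Gcg and Tac1 fell (-2.35 and -1.48) and Chgb was not called. The part of these markers in the Slc10a2 result was not tested.

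Fabp6 (ENSMUSG00000020405), which carries bile acids through the cytosol, was close to the limit of detection. Control samples II, III, IV and VI held 7.1, 3.32, 5.32 and 4.13 normalized counts, from 4 to 8 reads each. All 4 BMP2 samples held 0. Against the floor of 3 reads per library, which a count of 0 allows, Fabp6 was at least 1.36-fold lower with BMP2 (limma without the filter, adjusted p = 0.00016, where 22% of 29413 genes were called lower).

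The other ligands left a few Fabp6 reads. The values were 3.56, 0.845 and 2.63 with BMP3, 2.37, 6.84 and 1.2 with BMP4, 1.79, 0 and 1.82 with BMP5 and 2.72, 0 and 1.92 with BMP7. The BMP5 and BMP7 samples lay below the controls, yet none of these 4 differences passed the threshold (adjusted p = 1, 0.459, 0.0625 and 0.0848). Between ligands, BMP2 was called lower than BMP4 (adjusted p = 0.00483) and BMP3 (adjusted p = 0.0142, where 21.5% of all genes were lower), but all these means were under the BMP2 floor of 3.64 normalized counts, so no fold is given. For BMP5 the call appeared when samples were set to the same total (adjusted p = 0.0492).

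The exporter subunits differed between ligands in both directions. Slc51a (ENSMUSG00000035699) encodes OSTα, the subunit with the transmembrane core. The control values were 142, 133, 207 and 279 normalized counts in II, III, IV and VI. BMP4 gave 1020, 1020 and 962 in II, III and VI. BMP2 gave 20.4, 16.6, 25.9 and 49.4 in II, III, IV and VI. None of these 3 groups overlapped, for which the share over all genes is not given. The log2 change was 2.45 ± 0.33 (SE) with BMP4 (limma adjusted p = 3.46e-06) and -2.77 ± 0.31 with BMP2 (limma adjusted p = 1.51e-07), and both calls held under every alternative run, over log2 changes of 2.06 to 2.66 and -3.22 to -2.49.

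BMP5 and BMP7 lay on the low side of the Slc51a control. The values were 93.3, 69.5 and 163 with BMP5, where VI stood inside the control range, and 78, 87.4 and 124 with BMP7, all below it. The log2 difference was -0.83 for BMP5 (limma adjusted p = 0.0757) and -0.94 for BMP7 (limma adjusted p = 0.0386). With the replicate number as a block, the BMP5 difference passed as well (-0.80, adjusted p = 0.00825). Without the block, BMP5 also passed when its replicate VI was left out (-1.17, adjusted p = 0.0274), with DESeq2 (0.0367) and with quantile normalization (0.0494). BMP7 missed the threshold without control replicate IV (0.0816) or VI (0.121) or BMP7 replicate II (0.146) or III (0.0939), or without a filter (0.0595). BMP3 (145, 128 and 180) overlapped the control, with a log2 difference of -0.28 and a 95% interval of -0.98 to 0.42.

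Slc51b (ENSMUSG00000053862) encodes OSTβ, the single-pass partner that OSTα needs to reach the membrane. The control values were 22.2, 20.7, 42.6 and 52.9 normalized counts in II, III, IV and VI. BMP4 gave 364, 300 and 315, all far above the controls. Its log2 change, 3.31 ± 0.36 (SE, limma adjusted p = 2.13e-07), was the largest of the 5 tested genes with that ligand. Rasl12, whose RefSeq gene overlaps Slc51b, rose alongside from 0.887 to 3.3 in controls to 16.6 to 24 normalized counts with BMP4. Whether counting used strand is not given in the sources used here, so reads of the 2 genes cannot be told apart where they overlap.

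With BMP2 the Slc51b values were 15.9, 12.8, 18.8 and 24, overlapping the controls through replicate VI. The log2 change was -0.84 ± 0.33 (SE, limma adjusted p = 0.0287). It missed the threshold without control replicate IV (0.0852) or VI (0.117) or BMP2 replicate II (0.0578) or III (0.0857), and without a filter (0.051), with quantile normalization (0.09) or with only these groups fitted (0.0551). BMP5 (15.2, 11.1 and 28.3) and BMP7 (15.4, 17.3 and 26.9) gave log2 differences of -0.88 and -0.70, which were not called (adjusted p = 0.0781 and 0.144). BMP5 was called with the replicate block (-0.79, adjusted p = 0.018), with DESeq2 (0.0466) or quantile normalization (0.0316), and without control replicate III (0.0446) or BMP5 replicate VI (0.0298). BMP3 (24, 30.4 and 45.5) stayed within the control range, with a log2 difference of 0.01 and a 95% interval of -0.74 to 0.76.

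The ratio of the subunit transcripts also differed between groups. In normalized counts, which are not scaled for length, Slc51a over Slc51b was 5.74 ± 0.79 in controls (SD, n = 4, range 4.86 to 6.43). With BMP2 it ranged from 1.28 to 2.06 (SD 0.37, n = 4) and with BMP4 it was 3.09 ± 0.30 (n = 3, range 2.80 to 3.40). Both groups lay below every control: with BMP2 the log2 change of Slc51a was below that of Slc51b (-2.77 and -0.84), and so it was with BMP4 (2.45 and 3.31). The ratio was 3.96 to 6.04 with BMP3, 5.76 to 6.26 with BMP5 and 4.61 to 5.06 with BMP7, each overlapping the control. These ratios are a description and were not tested.

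**Figure D2:**
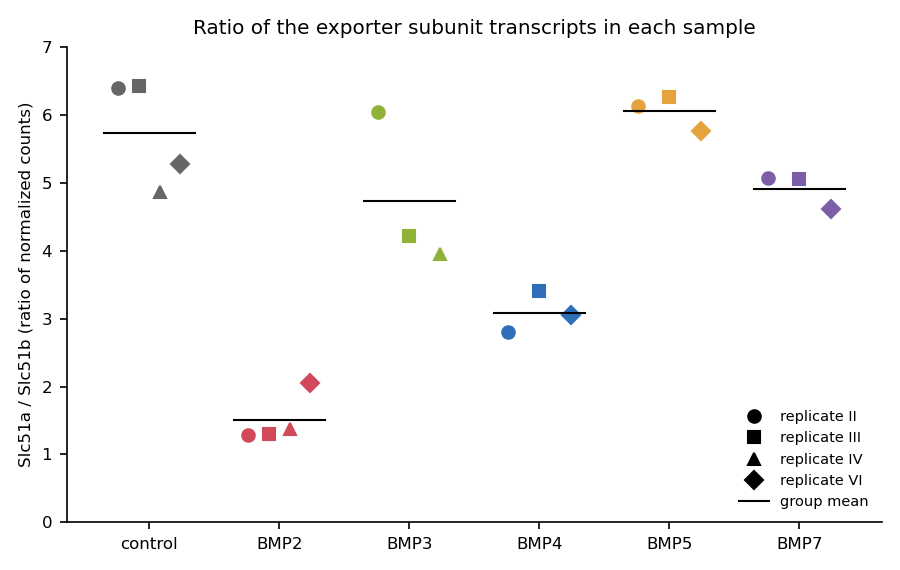
Slc51a over Slc51b in each sample of the BMP experiment, as a ratio of normalized counts. Points are samples, shapes are replicate numbers and lines are group means; the 4 BMP2 samples (1.28 to 2.06) and the 3 BMP4 samples (2.80 to 3.40) lie below all controls (4.86 to 6.43).

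Nr1h4 (ENSMUSG00000047638), the receptor FXR itself, was highest with BMP4 and lowest with BMP2. The control values were 342, 260, 301 and 391 normalized counts in II, III, IV and VI. BMP4 gave 1330, 1140 and 1330, and BMP2 gave 126, 121, 193 and 216. The 3 groups did not overlap, again without the share over all genes. The log2 change was 1.98 ± 0.22 (SE) with BMP4 (limma adjusted p = 2.58e-07) and -1.01 ± 0.20 with BMP2 (limma adjusted p = 0.000178), and both calls held under every alternative run.

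BMP5 (265, 165 and 297) and BMP7 (229, 198 and 259) had Nr1h4 means of 242 ± 68.9 and 229 ± 30.5 (SD, n = 3 each) against 324 ± 56.1 in controls (n = 4). The log2 differences of -0.44 and -0.49 were not called (limma adjusted p = 0.147 and 0.0927), but with the replicate block both were (-0.43, adjusted p = 0.0265, and -0.47, adjusted p = 0.0129). BMP3 (345, 265 and 318) lay within the control range, with a log2 difference of -0.06 and a 95% interval of -0.51 to 0.40.

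Slc51a, Slc51b and Nr1h4 ran in nearly the same order over the groups: BMP4 highest, then the control and BMP3, then BMP5 and BMP7, and BMP2 lowest. For all 3 the step from BMP4 to the control was called, and the steps among the control, BMP3, BMP5 and BMP7 were not. The last step, down to BMP2, was called for Slc51a (from BMP7, log2 difference 1.84, limma adjusted p = 0.000103) and Nr1h4 (from BMP7, 0.51, adjusted p = 0.047), and not for Slc51b (from BMP5, adjusted p = 0.927). The Nr1h4 step rests on single samples: it missed the threshold without BMP2 replicate II (0.131) or III (0.143) or BMP7 replicate II (0.0949) or VI (0.156), and was at -0.09 with quantile normalization (BMP2 over BMP7, adjusted p = 0.724), while it also missed it without a filter (0.072), with only these groups fitted (0.083) or with DESeq2 (0.0579). Over the 20 samples, which share the groups and their scaling, Pearson r of the log2 levels was 0.95 between Nr1h4 and each subunit and 0.88 between the subunits, whereas Slc10a2 had r = -0.46 with Slc51a, -0.10 with Slc51b and -0.25 with Nr1h4.

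The genes most like Slc51a over these samples were Shpk (r = 0.991), Btnl1 (0.989) and Mttp (0.989). Mttp encodes the protein that loads lipid onto nascent lipoproteins, and Btnl1 an enterocyte butyrophilin-like protein. Those most like Slc51b were H2-Q2 (0.990), Tm6sf2 (0.989) and Dgat1 (0.989), where Dgat1 makes triglyceride. Those most like Nr1h4 were Slc33a1 (0.983), Slc35b1 (0.983) and Abcg2 (0.983), where Abcg2 is an apical efflux pump. In the 6 TGFb samples these 9 correlations were 0.81 to 0.99. With every sample set to the same total, the lists kept 3, 2 and 0 of their 3 genes.

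Nr0b2 (ENSMUSG00000037583), the corepressor SHP, was highest in the control. The control values were 9.77, 16.6, 22.2 and 19.8 normalized counts in II, III, IV and VI. BMP4 gave 2.37, 7.99 and 12, and its highest sample overlapped the lowest control. The log2 difference of -1.25 was not called (limma without the filter, adjusted p = 0.103, 95% interval -2.43 to -0.06), although it was when samples were set to the same total (-1.60, adjusted p = 0.0305) or without BMP4 replicate VI (-1.66, adjusted p = 0.0499).

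BMP2 left 0, 1.28, 1.18 and 0 normalized counts of Nr0b2, which is 2 reads in 4 samples against 80 in the controls. Corrected for depth that is a 28.3-fold lower level, with an exact 95% counting interval of 7.58 to 238 that covers counting error only (limma without the filter, log2 change -3.54, adjusted p = 8.3e-06). BMP7 gave 0.907, 4.55 and 5.77, all below the controls, with a log2 change of -2.07 (adjusted p = 0.0163, where 5.68% of 29413 genes were called lower), which missed the threshold without BMP7 replicate II (adjusted p = 0.138), with a pseudocount of 0.1 (0.104) or with only these groups fitted (0.0558). BMP5 (7.18, 3.7 and 11.9) and BMP3 (12.5, 11 and 23.6) overlapped the controls and were not called (adjusted p = 0.255 and 1).

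Fgf15 (ENSMUSG00000031073), the endocrine signal to the liver, was low and uneven between replicates. The control values were 23.1, 31.5, 12.4 and 8.26 normalized counts in II, III, IV and VI. BMP2 gave 4.54, 16.6, 2.35 and 5.06, and BMP4 gave 10.7, 22.8 and 2.39. Replicate III was the highest in 5 of the 6 groups, and the ligand groups overlapped the controls. BMP2 lowered Fgf15 by a log2 change of -1.40 ± 0.60 (SE, limma adjusted p = 0.0414).

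That call missed the threshold without control replicate II (0.0962) or III (0.129), or BMP2 replicate II (0.0824), IV (0.133) or VI (0.0737), and under quantile normalization (-0.94, adjusted p = 0.138) or without a filter (0.0666). For BMP4 the log2 difference was -0.85 (95% interval -2.21 to 0.51, adjusted p = 0.263), so no change of Fgf15 was shown there. BMP3 (18.7, 35.5 and 9.63), BMP5 (4.48, 8.34 and 11.9) and BMP7 (8.17, 9.11 and 8.66) were not called either (adjusted p = 1, 0.271 and 0.318). The genes most like Fgf15 were 1810008I18Rik (r = 0.798), Rnf123 (0.761) and Thumpd3 (0.756), a looser match than for the other genes. With equal totals 1 of these 3 remained and Igf2bp2 came first (0.846), and in the 6 TGFb samples all 3 correlations were negative (-0.52, -0.64 and -0.62).

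**Figure D3:**
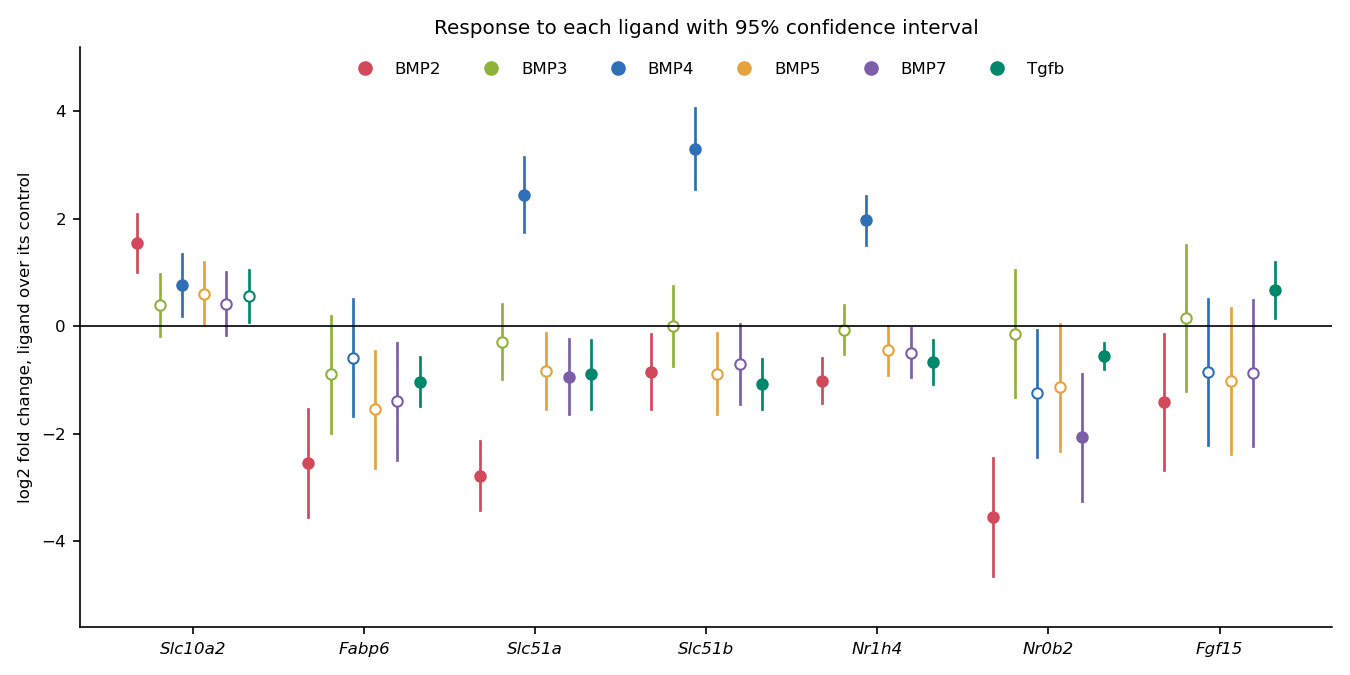
Log2 fold change of each gene with each ligand against the control of its own experiment, with the 95% confidence interval from limma; filled points have an adjusted p under 0.05. BMP4 raises Slc51a, Slc51b and Nr1h4 (2.45, 3.31 and 1.98) and BMP2 lowers them (-2.77, -0.84 and -1.01), while Slc10a2 is raised by BMP2 (1.55).

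In counts, BMP2 raised 1 (Slc10a2) and lowered 4 of the 5 genes tested with the filter, where 36.8% of all tested genes were higher and 38.4% lower. BMP4 raised 4 and lowered 0, against 33.7% and 31.4% of all tested genes. BMP7 raised 0 and lowered 1 (Slc51a), against 19.2% and 13.2%. BMP5 changed 0 of the 5 by limma or edgeR and 2 by DESeq2, where limma called 16.5% of all tested genes higher and 9.87% lower. At an unadjusted p under 0.05 in limma, 3 of the 5 passed (Slc10a2, Slc51a and Slc51b), as did 5475 of all 14746 tested genes. With the replicate number as a block, limma called 3 of the 5 for BMP5 (Slc51a, Slc51b and Nr1h4) and 2 for BMP7 (Slc51a and Nr1h4), all lower, while its calls over all genes went from 3884 to 5738 and from 4773 to 6689. BMP3 changed 0 of the 5 by limma, edgeR or DESeq2, and 0% of all tested genes by limma. At an unadjusted p under 0.05 in limma, 0 of the 5 passed, and 110 of all 14746 tested genes. The split over all genes depends on the scaling: with every sample set to the same total, calls were 3627 higher and 7783 lower for BMP2 (5420 and 5657 as deposited), 3100 and 6864 for BMP4 (4964 and 4633) and 2587 and 2725 for BMP7 (2833 and 1940). With quantile normalization they were 2397 and 2413 for BMP5 (2429 and 1455).

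Because a call with one ligand and not with another is no difference, ligands were also set against each other. BMP2 lay below BMP4, with a log2 difference of -5.23 for Slc51a (limma adjusted p = 1.36e-10), -4.15 for Slc51b (adjusted p = 7.96e-09) and -2.98 for Nr1h4 (adjusted p = 8.11e-10), where 33.4% of all tested genes were lower. Nr0b2 was lower with BMP2 too (-2.30, limma without the filter, adjusted p = 0.00261, where 18.7% of all genes were lower), and Fgf15 did not differ beyond its spread (95% interval of the log2 difference -1.92 to 0.80). In ratio of means, Slc51a was 35.6-fold and Slc51b 18.3-fold higher with BMP4 than with BMP2.

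BMP4 was also above BMP7 for Slc51a (log2 difference 3.39, limma adjusted p = 2.15e-07), Slc51b (4.01, adjusted p = 6.72e-08) and Nr1h4 (2.47, adjusted p = 5.74e-08), where 28.4% of tested genes were higher. BMP2 differed from BMP7 in Slc10a2 (1.13 higher, adjusted p = 0.00163), Slc51a and Nr1h4, where 62.8% of tested genes were called. BMP5 against BMP7 called 0 of the 5 genes by limma, edgeR or DESeq2, where limma called 0.0136% of tested genes. At an unadjusted p under 0.05 in limma, 0 of the 5 passed, and 347 of all 14746 tested genes. For Slc51a the 95% interval of that log2 difference was -0.64 to 0.86, which leaves room for a difference in either direction. Over the 5 ligands together, limma's F-test called Slc51a, Slc51b, Nr1h4 and Slc10a2 (adjusted p = 1.68e-09, 1.68e-08, 5.57e-09 and 0.00334) and not Fgf15 (0.259), and the Slc10a2 call was lost with equal totals (0.0902), where 84.1% of tested genes were called.

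With Tgfb, Slc51a, Slc51b, Nr1h4, Fabp6 and Nr0b2 fell and Fgf15 rose. The TGFb experiment has its own controls and scale. In its controls I, II and III, Slc51a was at 10.7, 7.29 and 12.7 TPM, Slc51b at 7.04, 7.78 and 11.4, and Nr1h4 at 6.90, 8.27 and 10.6. Fabp6 (1.01, 1.78 and 0.845), Fgf15 (0.592, 1.16 and 0.713), Slc10a2 (0.532, 0.753 and 0.967) and Nr0b2 (0.523, 0.667 and 0.877) were lower. In TPM, which allows genes to be compared, the subunits and the receptor lay above the other 4 genes in every control, and within each of these sets the ranges overlapped.

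With Tgfb, Slc51b was at 3.13, 3.35 and 4.26 TPM, Slc51a at 4.94, 3.44 and 6.90 and Nr1h4 at 4.53, 4.60 and 5.94. All 3 genes lay below their controls in every sample, as 33.5% of all tested genes did (31.1% lay above). On the log2(TPM + 1) scale, which understates changes of low values, Slc51b fell by 1.07 ± 0.19 (SE, limma adjusted p = 0.00346), Slc51a by 0.89 ± 0.27 (adjusted p = 0.0282) and Nr1h4 by 0.66 ± 0.17 (adjusted p = 0.016), where 29.3% of all tested genes were called lower. The Slc51a call was lost without control replicate I (0.0964) or III (0.0983) or Tgfb replicate I (0.0806) or II (0.0857) or without a filter (0.0651), and that of Nr1h4 without control replicate II (0.0513) or Tgfb replicate I (0.0602) or II (0.0612). Slc51a over Slc51b was 0.937 to 1.52 in controls and 1.03 to 1.62 with Tgfb, in TPM.

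Fabp6 was listed at 0, 0 and 0.219 TPM with Tgfb (log2 change -1.03, limma without the filter, adjusted p = 0.00859, where 14.8% of 26322 genes were called lower). Nr0b2 was at 0.105, 0.116 and 0.227 TPM, below every control (log2 change -0.55, adjusted p = 0.00808). Fgf15 rose to 1.46, 1.88 and 2.44 TPM, above every control (0.68 ± 0.21 SE, limma adjusted p = 0.0333, where 27.4% of tested genes were called higher), a call lost without control replicate I (0.0694) or III (0.0677) or Tgfb replicate II (0.0573) or III (0.0688) and under quantile normalization (0.0572). Slc10a2 was at 1.41, 1.35 and 2.04 TPM, again above every control, and just missed the threshold (0.57 ± 0.20 SE, adjusted p = 0.0507), which it passed without control replicate III (0.0343) or Tgfb replicate II (0.0399) or with a pseudocount of 0.1 (1.01, adjusted p = 0.041). The Fgf15 fall with BMP2 and its rise with Tgfb come from experiments scaled apart, and their difference was not tested. The sum of crypt stem markers fell from 2517 to 2956 TPM in these controls to 167 to 170 with Tgfb, while the enterocyte sum went from 2874 to 3557 to 5113 to 6713, and their part in these results was not tested. Tgfb samples also lay below every control in the goblet sum (641 to 687 against 769 to 938). So did the hepatocyte sum (3.94 to 5.58 against 13.4 to 15.7) and the Paneth sum (2765 to 3423 against 3607 to 4521). Within the Paneth sum Lyz1 fell (log2 change -0.65) and Mmp7 rose (0.86), while Ang4 and Itln1 were not called. The enteroendocrine sum lay above every control (288 to 315 against 249 to 264). The low immune (3.02 to 3.59 against 2.13 to 2.52) and mesenchymal sums (0.507 to 0.807 against 0.0144 to 0.0183) did too. Within the enteroendocrine sum only Chga was called (log2 change 0.40). Within the goblet sum Muc2, Tff3 and Clca1 fell, while Fcgbp and Spdef were not called. The part of these shifts was not tested either.

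**Figure D4:**
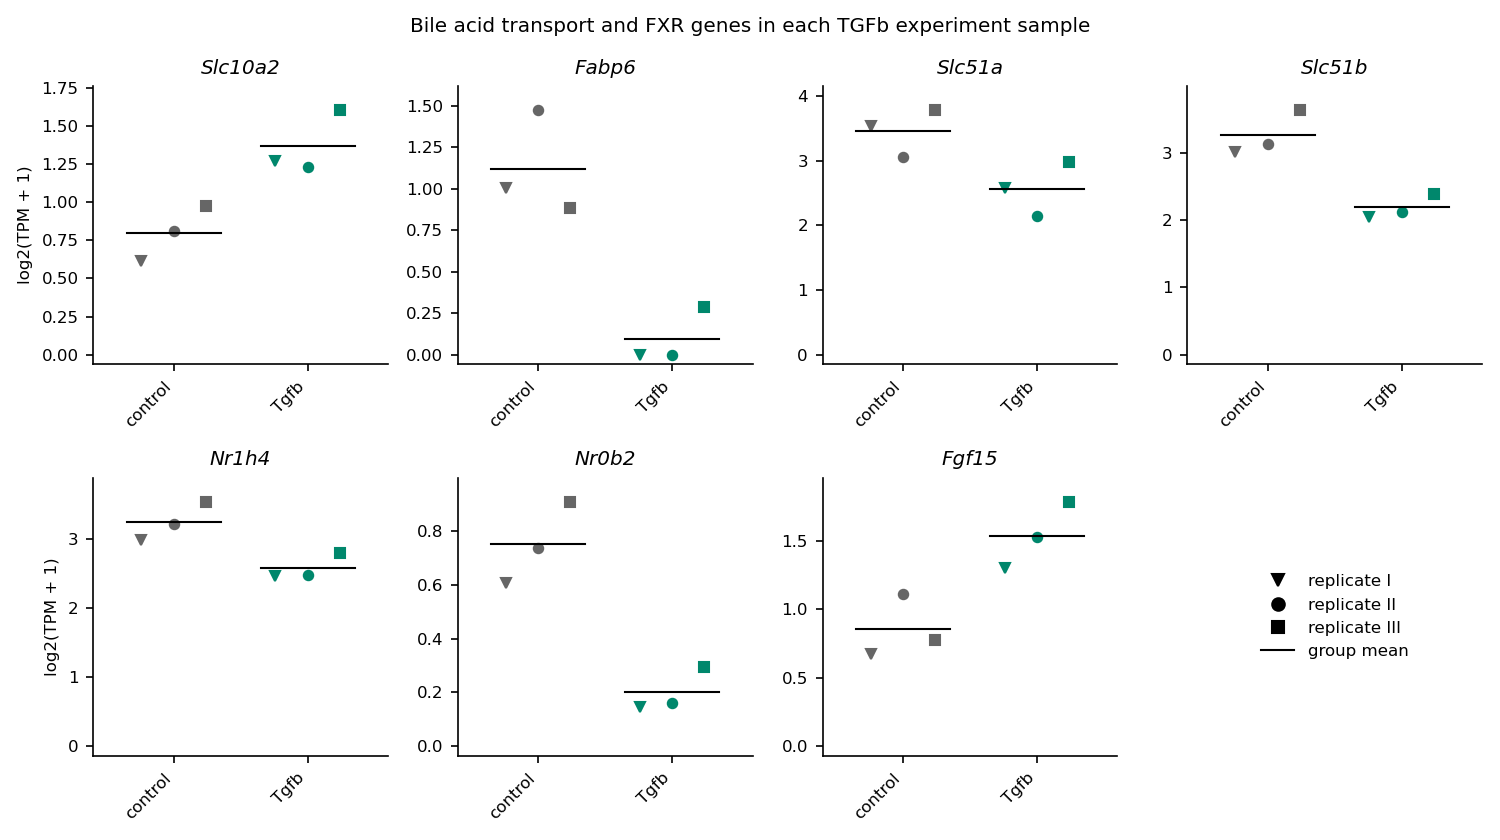
Level of each of the 7 genes in the 6 samples of the TGFb experiment, as log2(TPM + 1). Points are samples, shapes are replicate numbers and lines are group means; Slc51a, Slc51b, Nr1h4, Fabp6 and Nr0b2 are lower in all 3 Tgfb samples than in any control, and Slc10a2 and Fgf15 are higher.

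The other bile acid and sterol transporters mostly rose with BMP4 and fell with BMP2. The counts of this and the following gene lists are read against the share of all tested genes called: 33.7% higher and 31.4% lower with BMP4, 36.8% and 38.4% with BMP2, 27.4% and 29.3% with Tgfb, 16.5% and 9.87% with BMP5, and 19.2% and 13.2% with BMP7. The median log2 change over all tested genes was 0.04 with BMP4, -0.03 with BMP2 and -0.04 with Tgfb. Of 17 listed genes 10 were tested. BMP4 raised 7 and lowered 1 of them (7 and 2 with equal totals), with a median log2 change of 1.96. BMP2 raised 1 and lowered 6, with a median of -1.06. Tgfb raised 2 and lowered 5 (median -0.49), BMP5 raised 0 and lowered 4, BMP7 raised 0 and lowered 5, and BMP3 changed 0.

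Abcg5 and Abcg8, which as a pair pump sterols into the lumen and are targets of the oxysterol receptors, were at 802 ± 239 and 855 ± 198 normalized counts in controls (SD, n = 4). BMP4 raised them by 2.14 and 2.11 and BMP2 lowered them by 2.13 and 2.39 on the log2 scale. Abcc2, an apical conjugate export pump, rose by 2.40 with BMP4 and fell by 1.04 with BMP2. Abcc3, a basolateral export pump for conjugates and bile acids, rose with both, by 2.03 and 1.04, and with Tgfb by 0.85. These pumps were singled out after their values were seen.

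The smallest p of the transporter list belonged to Slco2b1, an organic anion uptake carrier, with BMP2 (log2 change -5.29), BMP5 (-2.36), BMP7 (-2.92) and Tgfb (-3.86). With BMP4 it belonged to Abcc4, another basolateral export pump, which fell by 2.69. Slc10a5, a relative of Slc10a2, went the other way from it with BMP2, falling by 2.07, and rose by 1.89 with BMP4.

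Receptors and partners of FXR also split between these ligands, with 12 of 14 listed genes tested. BMP4 raised 9 and lowered 2 (median log2 change 0.85), BMP2 raised 2 and lowered 8 (-0.96; 1 and 10 with equal totals), and Tgfb raised 2 and lowered 10 (-0.32). Over all tested genes 33.7% were higher with BMP4, 38.4% lower with BMP2 and 29.3% lower with Tgfb. Calls in either direction were 10 of 12 with BMP2, close to the 75.1% over all genes. BMP5 raised 2 and lowered 6, BMP7 raised 2 and lowered 5, and BMP3 changed 0. Vdr, the vitamin D receptor, which also senses lithocholic acid, had the smallest p with BMP2 (log2 change -3.48), BMP5 (-1.45), BMP7 (-1.33) and Tgfb (-2.55), and rose by 1.49 with BMP4. Rxra, the usual partner of FXR, had the smallest p with BMP4 (1.41) and was at 0.09 with BMP2, which was not called. Nr5a2, known as LRH-1, fell by 4.40 with BMP2 and was at 0.12 with BMP4, not called. Gpbar1, the membrane bile acid receptor TGR5, was not tested for its low counts.

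**Figure D5:**
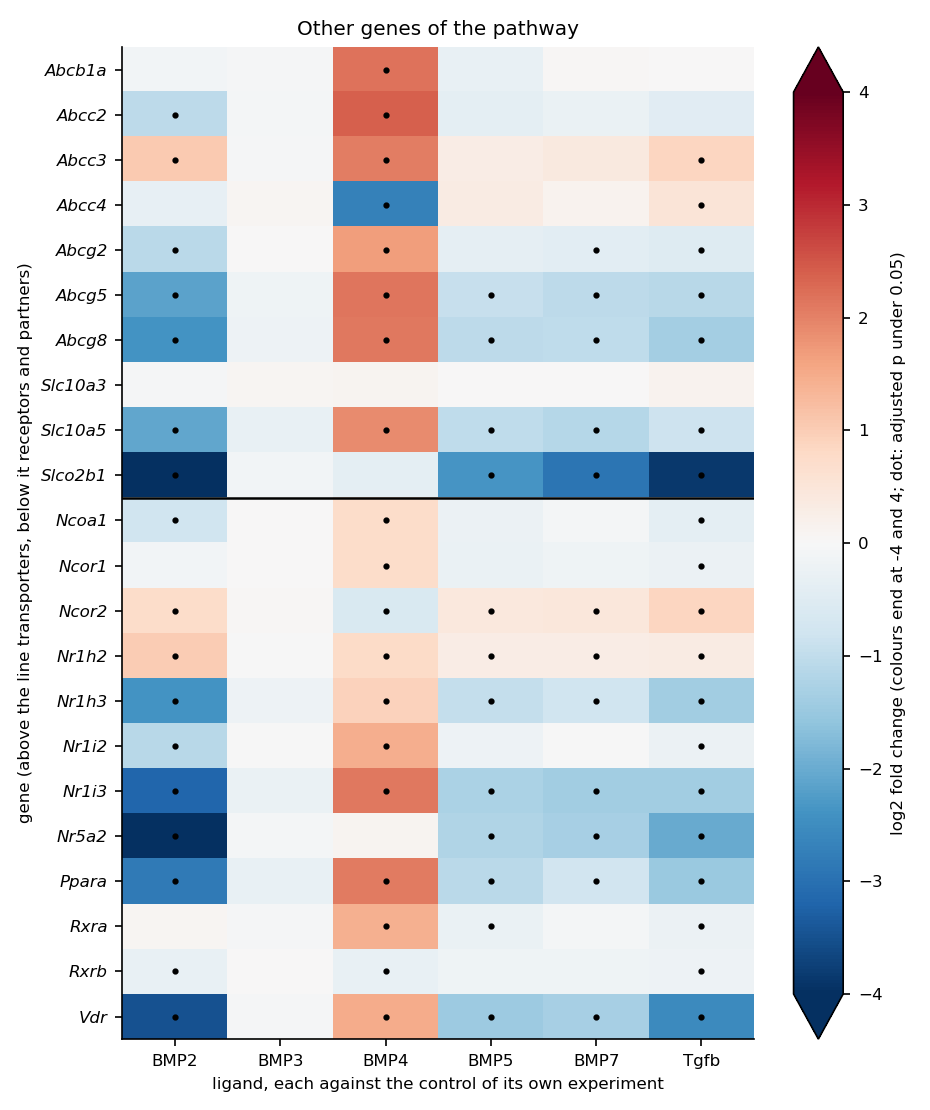
Log2 fold change of the tested transporters (above the line) and of the receptors and partners (below it), each ligand against the control of its own experiment. Dots mark an adjusted p under 0.05 and colours end at -4 and 4; BMP4 is mostly raised, BMP2 and Tgfb are mostly lowered, and BMP3 holds no dot.

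Genes of bile acid synthesis and modification were mixed. Of 17 listed, 10 were tested, and Cyp7a1, the rate-limiting enzyme of the classic pathway in liver, was not among them. BMP4 raised 7 and lowered 2 (median log2 change 1.34; 6 and 3 with equal totals), against 33.7% and 31.4% of all tested genes. BMP2 raised 3 and lowered 6 (median -0.84; 2 and 7 with equal totals), against 36.8% and 38.4%. Tgfb raised 5 and lowered 4 (median 0.40), against 27.4% and 29.3%. With 10 genes, the 3 raised by BMP2 are near the share over all genes. Slc27a2, a very-long-chain acyl-CoA synthetase, had the smallest p with BMP2 (log2 change -4.55), BMP5 (-2.11), BMP7 (-2.63) and Tgfb (-4.02), and Sult2b1, a sterol sulfotransferase, with BMP4 (3.38). Hsd3b7, which acts on the sterol ring in bile acid synthesis, rose by 2.19 with BMP2, 0.73 with BMP4 and 1.74 with Tgfb.

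Of 8 listed genes of Fgf15 signalling and secretion, 7 were tested. BMP2 raised 2 and lowered 4 (1 and 4 with quantile normalization), BMP4 raised 2 and lowered 3 (1 and 5 with equal totals), and Tgfb raised 4 and lowered 3. The medians were -0.86, -0.61 and 0.24. The BMP2 and BMP4 counts lie near the shares over all tested genes (36.8% higher and 38.4% lower, 33.7% and 31.4%) and show nothing about the list as a group. Fgfr4, the main receptor of Fgf15, fell by 1.03 with BMP2 and 2.17 with BMP4 and rose by 1.08 with Tgfb. Malrd1, also called Diet1, which is known to raise Fgf15 output of enterocytes, rose by 1.48 with BMP4 and fell by 0.86 with BMP2 and 0.54 with Tgfb.

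Of 9 other reported FXR targets of the intestine 6 were tested. With BMP4, 2 rose (Il18 by 2.27 and Cyp3a11 by 1.86) and 1 fell (Car12, by 2.96), with a median log2 change of -0.19 (2 higher and 3 lower with equal totals), and the 2 of 6 higher are level with the 33.7% of all tested genes. BMP2 raised 1 (Sdc1, by 1.51) and lowered 4 (median -0.96), against 36.8% and 38.4% of all tested genes, and Tgfb raised 1 and lowered 4 (-0.77), against 27.4% and 29.3%. In the same BMP4 samples, of the targets among the 7 genes, Slc51a and Slc51b rose while Nr0b2, Fabp6 and Fgf15 were not called.

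Genes that mark a part of the intestine moved along as well. Of 10 other ileal enterocyte genes, all tested, BMP4 raised 7 and lowered 1 (median log2 change 1.77; 6 and 2 with equal totals) and BMP2 raised 2 and lowered 6 (-0.92; 1 and 8). Tgfb raised 1 and lowered 7 of the 9 tested there (-1.40). Of 9 tested proximal enterocyte genes BMP4 raised 9 (median 2.67), and BMP2 raised 2 and lowered 6 (-1.61; 1 and 7 with equal totals), while Tgfb raised 3 and lowered 6 (-0.83). The shares over all tested genes were 33.7% higher and 31.4% lower with BMP4, 36.8% and 38.4% with BMP2, and 27.4% and 29.3% with Tgfb. Clec2h, an ileal gene, rose by 4.52 with BMP4, and Slc46a1, the proximal folate transporter, by 3.41. The exporter subunits and FXR rose with BMP4 beside genes of both segments. Of 15 transcription factors that set this pattern, BMP4 raised 10 and lowered 3 (median 0.96), BMP2 raised 5 and lowered 4 (0.17; 5 and 9 with equal totals), and Tgfb raised 4 and lowered 8 of 14 tested (-0.37). The BMP2 calls, 9 of 15 in either direction, are below the 75.1% over all tested genes. Maf had the smallest p with BMP4 (5.21) and Cdx1 with BMP2 (-2.46), and Gata4, which represses ileal genes in the proximal gut, was at 0.96 with BMP4 (called) and 0.21 with BMP2 (not called).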

How the data were processed

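Small-intestinal organoid samples of 2 experiments were analysed: 20 of the BMP experiment and 6 of the TGFb experiment, in groups taken from the labels. The submitters' processing notes name Trim Galore, Salmon, DESeq2 and build GRCm39, without saying which step made which table. The BMP table as deposited holds a signal, gene counts that the authors divided by a size factor. The values themselves show this: 179495 of 180721 values up to 20 reads (99.32%) were whole multiples of 1 read within 0.05 reads. The TGFb table as deposited holds TPM, since each column sums to 1000000. Values of both tables are per gene, and reads of overlapping genes or near-identical copies may be split in ways the tables do not show.

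The R package limma (3.58.1, under R 4.3.3) was fitted to log2(value + 1), with a trend, 1 fit for all groups of a table, two-sided, and Benjamini-Hochberg adjustment over 14746 (BMP) or 12959 (TGFb) genes. The code was tested on simulated data. Alternatives were edgeR 4.0.16 and DESeq2 1.42.0 on the recovered reads, a pseudocount of 0.1, other filters, other scalings, only the groups compared, a replicate block and leaving out each sample. On the recovered reads edgeR called 11106 genes for BMP2, 0 for BMP3, 9667 for BMP4, 4199 for BMP5 and 5039 for BMP7 against the control.

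Same-numbered samples deviated together in every pair of BMP3, BMP4, BMP5 and BMP7 with the control (correlations of 0.158 to 0.553). For BMP2 and Tgfb not every pair passed 0.1. The numbers were taken as pairs only in the replicate block, which was an alternative. The main fit left the replicate number out, so its p-values do not use this pairing. The named genes are the 7 chosen genes, the 3 genes most like each, and the gene of smallest p in each list of pathway genes. Other list genes were named for their role after their values were seen. The genes and lists were chosen with earlier results of these data known.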

Additional observations from a re-analysis of the deposited data

How the results depend on the processing

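For single genes, 62 results were recomputed under 985 alternatives: 895 kept direction and side of the threshold, 58 kept direction and lost the call, 19 gained one and 13 changed sign. No called result changed sign. The calls of Slc51a and Nr1h4 with BMP2 and BMP4, of Slc51b with BMP4 and Tgfb, of Slc10a2 with BMP2, and of Fabp6 and Nr0b2 with BMP2 and Tgfb held under every alternative run. The sign changes were those of uncalled differences. For BMP3, Nr1h4 went to 0.028 with the replicate block, and Slc51b to -0.062 with edgeR and -0.054 with DESeq2. Leaving out 1 sample gave ranges of -0.16 to 0.050 (Nr1h4), -0.24 to 0.24 (Slc51b), -0.29 to 0.60 (Fgf15) and -0.45 to 0.067 (Nr0b2) with BMP3, and -1.32 to 0.083 for Fgf15 between BMP2 and BMP4. The cause was not tested.

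Of the 5 tested genes, BMP2 changed 3 without a filter or with quantile normalization, and 3 to 4 when 1 sample was left out. BMP5 changed 2 with DESeq2, 2 with quantile normalization, 3 with the replicate block, which pairs same-numbered samples, and 0 to 2 without 1 sample. BMP7 changed 0 without a filter, 2 with only the groups compared, 2 with the block, 2 with equal totals, and 0 to 1 without 1 sample. Tgfb changed 2 to 3 without 1 sample, and 0 with a filter at 10 TPM, which leaves out all 7 genes. The block changed no other call of these genes. Calls over all 14746 genes moved with the setting too. Quantile normalization called 5396 higher and 5540 lower for BMP2, and 2397 and 2413 for BMP5. Equal totals called 2587 and 2725 for BMP7, and the block raised the calls of BMP5 and BMP7 as given above. For the other settings the share over all genes is not set beside these counts, which show only whether calls of the 5 genes held. Over all genes, BMP3 changed 0 by limma (110 at an unadjusted p under 0.05) and by edgeR, 1 with DESeq2, 3 with only the groups compared and 0 to 1 without 1 sample, and BMP5 changed 2515 to 4298 without 1 sample. BMP5 against BMP7 gave 24 genes with DESeq2, 4 with edgeR, 0 with a filter at 50, 4 without a filter, 0 with a pseudocount of 0.1, 1 with quantile normalization, 6 with the block, 1 with equal totals and 0 to 9 without 1 sample.

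Equal totals moved the median log2 change of all tested genes by -0.45 for BMP2 and -0.39 for BMP4, and by -0.07 to 0.02 for BMP3, BMP5 and BMP7. Depth limits Fabp6, Nr0b2 and Fgf15, which rest on at most 8, 27 and 42 reads in any sample of the BMP experiment.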
